A study of Mus musculus with 72 samples.

Results

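A set of 7 genes whose products move amino acids across liver membranes was followed through the livers of 4 kinds of mice on 3 diets. The genes are Slc7a2, Slc7a8, Slc38a3, Slc38a4, Slc43a1, Slc6a12 and Slc25a44, chosen by name, and their Ensembl identifiers picked out 7 of the 50307 genes of the count table; all 7 were among the 14954 genes with enough counts to be tested. The animals were male and female C57BL/6J mice (B6, entered as C56BL/6J in the strain field) and DBA/2J mice (DBA), which gives the classes B6F, B6M, DBAF and DBAM. All animals ate a Western diet for 12 weeks, whose isoleucine was at the control level, low or high (control, low isoleucine and high isoleucine diets), and were fasted for 16 h overnight before the liver was taken, so no group shows the fed state or another diet. Each of the 12 groups of class and diet holds 6 bulk liver libraries. The sources differ on age: feeding began at 6 weeks by the design text and at 18 weeks by the treatment text, and the age field gives 18 weeks. The labels do not say that each library is a separate animal. The titles of a group carry 3 numbers, each on a pair of libraries with the letters N and R, and the meaning of number and letter is not explained. The p-values therefore measure the spread between these libraries, part of which may be technical. A result of the 7 genes is also given with the shared title number as a block wherever that ends its call. Calls of other genes and of markers were not checked in this way.

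Hepatocytes take up amino acids from portal blood and release others, through carriers that differ in their substrates and in what drives them. Some carriers use the sodium gradient to concentrate glutamine, alanine and related amino acids, some exchange or let through large neutral or basic amino acids, and separate carriers pass branched-chain amino acids across the inner mitochondrial membrane. Isoleucine is a branched-chain amino acid, whose carriers in the plasma membrane are largely of the L type, to which Slc43a1 and Slc7a8 belong.

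The 7 genes lie on 7 chromosomes of the GRCm38 build. Slc43a1, which encodes the sodium-independent carrier LAT3 for branched-chain and other large neutral amino acids, lies at chr2:84838850-84863594 on the plus strand. Slc7a8, the light chain of the exchanger LAT2, lies at chr14:54722209-54781946 on the minus strand. Slc38a3, encoding the sodium-coupled glutamine, asparagine and histidine carrier SNAT3, lies at chr9:107650634-107669530 on the minus strand, and Slc38a4, encoding SNAT4 for alanine and other neutral amino acids, at chr15:96994820-97055956 on the minus strand. Slc7a2, encoding the arginine and lysine carrier CAT2, lies at chr8:40862396-40922308 on the plus strand, where Gm26584, annotated on the other strand, overlaps it. Slc6a12, encoding the betaine and GABA carrier BGT1, lies at chr6:121343076-121365775 on the plus strand. Slc25a44, encoding the mitochondrial carrier of branched-chain amino acids, lies at chr3:88410498-88425139 on the minus strand. The counts are per gene, so transcript forms such as those of Slc7a2 were not separated.

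RefSeq promoter windows of GRCm38.p6 were matched by symbol for 4 of the 7 genes: Slc7a8, Slc38a4, Slc43a1 and Slc6a12. Slc7a2, Slc38a3 and Slc25a44 had no entry. The 250 bases before each start were searched on both strands for the amino acid response element core TGATGNAAN, the E-box CACGTG, the D-boxes TTATGTAA and TTACGTAA, and the glucocorticoid receptor hexamer AGAACA. No window of Slc7a8 or Slc6a12 held any of them. Slc43a1 held an E-box, a hexamer that 6.02% of the 32851 promoter windows of all genes also held, from base -64 to base -59 before its start. The 30 bases around it, at chr2:84840247-84840276 on the plus strand, are shown because Slc43a1 had the largest diet effect of the 7 genes. Capitals mark the E-box, which lies inside the annotated span of the Slc43a1 gene. The first start of Slc38a4, the gene that moved in opposite directions in 2 classes, held none of the motifs in its 250 bases, at chr15:97055957-97056206 on the minus strand. Of its other starts, 1 held the glucocorticoid receptor hexamer, as did 16.1% of all windows. Both sequences were chosen after the values had been seen, are those of the reference strain, and say nothing about binding.
Slc43a1: agggtctccctcCACGTGgcagccgtggga
Slc38a4: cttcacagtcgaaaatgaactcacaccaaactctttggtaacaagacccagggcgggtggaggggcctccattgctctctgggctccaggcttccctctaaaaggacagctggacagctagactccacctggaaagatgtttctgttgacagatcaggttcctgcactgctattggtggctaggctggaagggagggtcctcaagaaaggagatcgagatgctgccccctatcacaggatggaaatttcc

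The genes differed widely in abundance. Levels are CPM, the usual depth-scaled counts (a gene's share of the scaled library total), and between genes they are compared per kilobase of exon. Slc38a4 and Slc38a3 had the highest mean levels, 243 and 225 CPM per kb, at percentiles 98.7 and 98.5 of the tested genes. Slc7a2 followed at 45.6, Slc6a12 at 25.1 and Slc25a44 at 11.4 CPM per kb. The L-type carriers were the lowest, Slc43a1 at 1.57 and Slc7a8 at 0.961 CPM per kb, and their counts ran from 53 to 502 and from 22 to 361 per library. Over the 12 group means the spread was widest for Slc43a1 (1.86 on the log2 scale from lowest to highest group), Slc7a2 (1.75) and Slc7a8 (1.64), followed by Slc38a3 (1.05), and narrowest for Slc25a44 (0.71), Slc38a4 (0.51) and Slc6a12 (0.38). When the 12 groups of a gene were put in order of their mean level, no pair of neighbours was separated by more than the sum of their SDs, for any of the 7 genes. Neighbours in such an order are close by construction, and groups farther apart were fully separated for some genes, as given below.

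**Figure D1:**
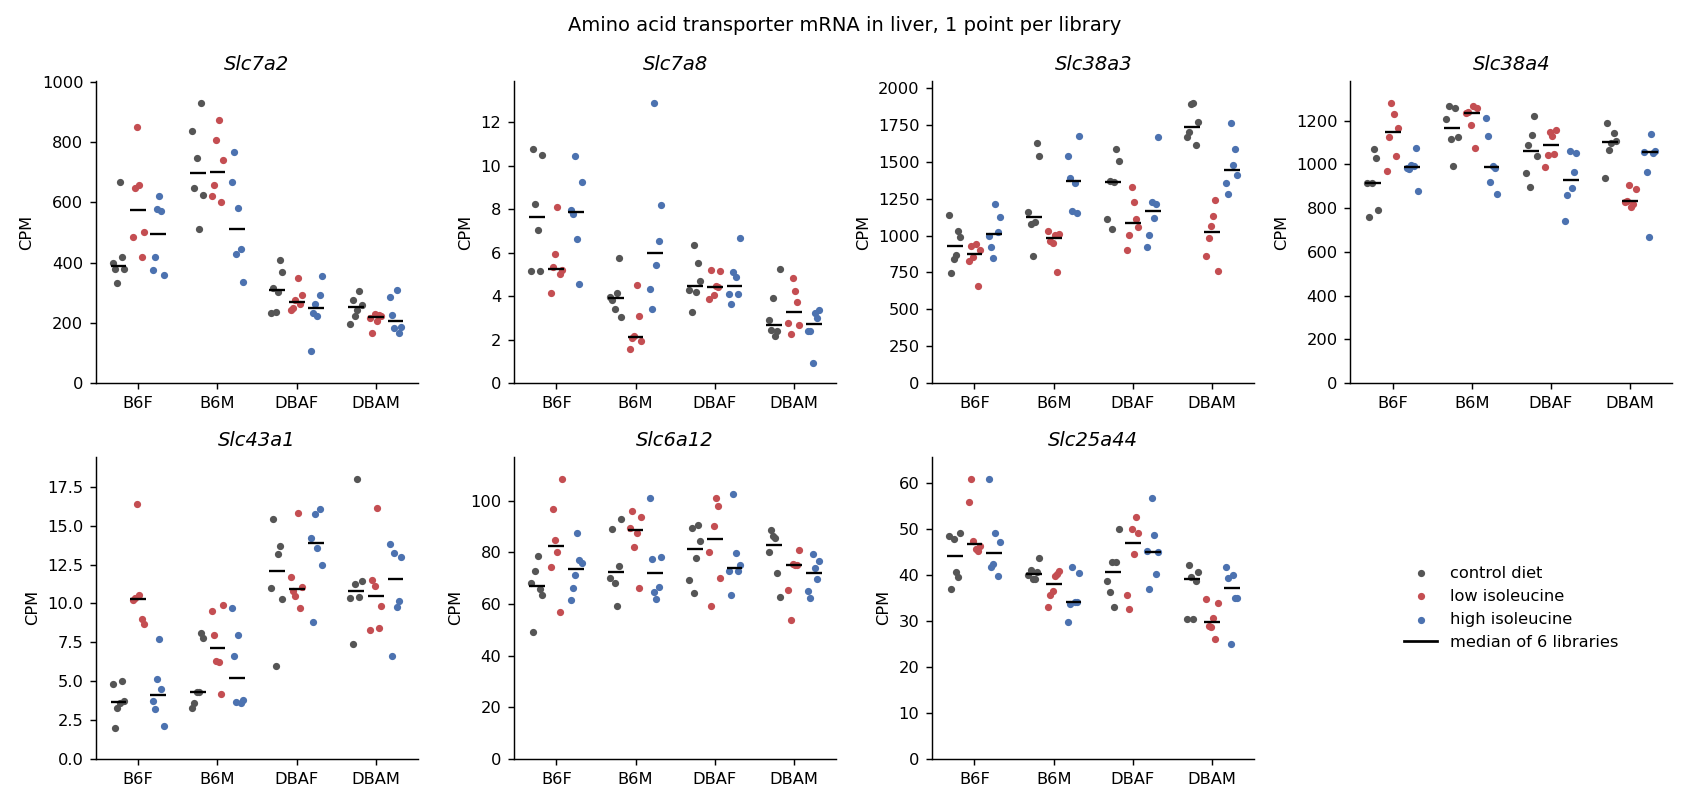
CPM of the 7 transporter genes in each of 72 liver libraries (vertical axes from 0), by class (B6F, B6M, DBAF, DBAM) and diet (colour), with the median of 6 libraries as a bar. Slc43a1 in B6F on low isoleucine (8.66 to 16.4 CPM) lies clear of B6F on the other diets, and Slc38a3 in DBAM on low isoleucine (763 to 1241 CPM) lies below DBAM on the other diets.

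Library totals ran from 12.96 M to 51.1 M counts (median 24.1 M, M for mega). Sex-linked genes matched the labelled sex, apart from traces. Xist reached 0.985 CPM in males, against at least 216 CPM in females, and the Y-linked gene Ddx3y reached 0.568 CPM in B6F control library 4. That library, DBAM high isoleucine library 3, B6M high isoleucine library 1 and B6M control library 1 lay farthest from the mean of their groups, and the member results were repeated without them. Of 7 pancreas markers, Prss1 was at 0 in all 72 libraries and Cela1 in none; Cela1 was the 1 tested and was higher in DBA by 2.43 on the log2 scale. Of 6 adipose markers, Lep was at 0 in 69 libraries and Fabp4 in none, and 3 were tested, Cidea, Cfd and Fabp4. Their sum lay between 16.5 and 248.6 CPM in B6M on high isoleucine against 4.11 to 20.3 CPM in all other groups. The hepatocyte transcripts Alb and Apoa1 were present in all. DBA reads were aligned to the reference genome of the B6 strain, and the effect of this on strain differences was not tested. In bulk tissue, fewer cells of a type and less RNA per cell cannot be told apart.

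Low isoleucine against the control diet raised Slc43a1 and lowered Slc38a3 when the 4 classes were averaged, and the other 5 transporters did not pass the test. Adjusted p-values here and below are from edgeR's quasi-likelihood test with Benjamini-Hochberg adjustment over all tested genes, with a threshold of 0.05. Slc43a1 rose by 0.49 ± 0.13 (log2 fold change ± SE, adjusted p = 0.0014) and Slc38a3 fell by 0.39 ± 0.06 (adjusted p = 1.6e-06). Thus 2 of 7 members changed, beside 37.8% of all tested genes, so the share is no higher than in the transcriptome at large. The median log2 fold change was 0.01 over the members and -0.0035 over all genes. Each class contributed differently to these averages, as the following values show.

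Slc43a1 gave the largest diet effect of the 7 genes, in B6F. Its 6 control libraries lay at 1.99, 3.26, 3.61, 3.73, 4.80 and 5.01 CPM. On low isoleucine the 6 libraries lay at 8.66, 8.97, 10.2, 10.4, 10.6 and 16.4 CPM. Every low isoleucine library was thus above every control library, also without the highest, library 3. The log2 fold change was 1.55 ± 0.26 (2.92-fold, adjusted p = 2.1e-05 by edgeR's quasi-likelihood test). In B6F 2 of 7 members changed, beside 20.8% of all genes, and 1 member had groups that did not overlap, beside 5.30% of all genes.

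In B6M the Slc43a1 values pointed the same way without passing. Control libraries lay at 3.25, 3.59, 4.32, 4.33, 7.81 and 8.13 CPM, and low isoleucine libraries between 4.16 and 9.90 CPM with a median of 7.13. The groups overlapped: control libraries 5 and 6, which share the title number 7, lay about level with the low isoleucine libraries while the other 4 control libraries stayed low; the log2 fold change was 0.50 ± 0.26 (adjusted p = 0.28). In the DBA strain the level was already higher on the control diet. DBAF control libraries lay between 5.96 and 15.4 CPM (median 12.1) and low isoleucine libraries between 9.72 and 15.8 (median 10.9), with a log2 fold change of -0.0017 (95% interval -0.49 to 0.48). DBAM control libraries lay between 7.39 and 18.0 CPM (median 10.8) and low isoleucine libraries between 8.27 and 16.1 (median 10.5), with -0.08 (95% interval -0.56 to 0.41). The B6F libraries on low isoleucine thus fell within the range of the DBA libraries on the control diet, a comparison that was not tested.

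The low isoleucine effect on Slc43a1 was smaller in DBA than in B6 by 1.06 ± 0.25 on the log2 scale (adjusted p = 0.018), and with the title number as a block this difference did not pass (-1.10, adjusted p = 0.074). It was one of 2 members, with Slc38a4, that passed this test of strains, beside 1.39% of all genes. Between the sexes the difference of the Slc43a1 effect did not pass (-0.56 ± 0.25, males minus females, adjusted p = 0.18). In B6F, 6 of 12 Kupffer cell markers were also lower and none higher on low isoleucine (median -0.77). Higher were 3 of 10 sinusoidal endothelial and 1 of 9 hepatocyte markers, and lower were 2 of 11 stellate cell, 1 of 10 lymphocyte and 1 of 6 cholangiocyte markers. The part of these markers in the Slc43a1 result was not tested.

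Slc38a3, the glutamine and histidine carrier, fell most in DBAM. The 6 DBAM control libraries lay at 1616, 1664, 1698, 1769, 1891 and 1894 CPM, the group with the highest mean of this gene. The 6 low isoleucine libraries lay at 763, 862, 984, 1065, 1134 and 1241 CPM. The groups did not overlap, and the log2 fold change was -0.80 ± 0.13 (1.74-fold lower, adjusted p = 5.6e-06). In DBAM 2 of 7 members changed, both downward, beside 17.7% of all genes (10.2% lower), and both had groups that did not overlap, beside 7.33% of all genes. In the same comparison 2 of 10 sinusoidal endothelial markers were higher (median 0.36), and 2 of 11 stellate cell markers were higher and 1 lower. Of 9 hepatocyte markers 1 was lower, and of 12 Kupffer cell markers 0 passed. Their part in the Slc38a3 result was not tested.

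In the other 3 classes the Slc38a3 estimates were also negative, and none passed. They were -0.37 ± 0.13 in B6M (adjusted p = 0.086), -0.27 ± 0.13 in DBAF (adjusted p = 0.18) and -0.14 ± 0.13 in B6F (adjusted p = 0.49). In B6M the control libraries 5 and 6 again stood apart, at 1628 and 1538 CPM against 864 to 1158 CPM in the other 4, and the low isoleucine libraries lay between 750 and 1031 CPM. The difference between males and females was -0.38 ± 0.13 and did not pass (adjusted p = 0.059), nor did that between DBA and B6 (-0.28 ± 0.13, adjusted p = 0.29). In B6M 0 of 7 members passed, beside 5% of all genes, and in DBAF 0 of 7, beside 11.8%; at an unadjusted p under 0.05 there were 2 and 1. No member had groups without overlap in either class, beside 2.51% of all genes in B6M and 5.52% in DBAF.

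Slc38a4, the related SNAT4 gene, rose in one class and fell in another, so that its average over the classes was near 0 (0.01 ± 0.05). In B6F the control libraries lay between 759 and 1072 CPM (median 916) and the low isoleucine libraries between 968 and 1279 CPM (median 1146). These ranges overlapped, and the log2 fold change was 0.31 ± 0.09 (adjusted p = 0.013). Leaving out B6F control library 2 or 6, the 2 lowest, moved it to 0.26 or 0.28 and ended the call (adjusted p = 0.051 and 0.05). In DBAM the 6 control libraries lay at 937, 1067, 1100, 1106, 1146 and 1189 CPM and the 6 low isoleucine libraries at 808, 818, 830, 832, 887 and 907 CPM. Those groups did not overlap, and the fold change was -0.37 ± 0.09 (adjusted p = 0.0038). In B6M (0.06 ± 0.09) and DBAF (0.04 ± 0.09) Slc38a4 did not pass.

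The difference of the Slc38a4 effect between strains was -0.35 ± 0.09 for DBA minus B6 (adjusted p = 0.04), and that between sexes -0.33 ± 0.09 for males minus females (adjusted p = 0.024). With the title number as a block neither passed (adjusted p = 0.18 and 0.097). Of 10 genes of periportal hepatocytes, the cells around the portal vein, 4 were higher and 1 lower in B6F (median 0.54) and 0 higher and 2 lower in DBAM (median -0.16). In DBAF none passed and the median was 0.37, while Slc38a4 was at 0.04, and in B6M 1 was lower (median -0.0090). Their part in the Slc38a4 result was not tested.

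Slc25a44, the mitochondrial carrier of branched-chain amino acids, passed in no class. Its medians on the control and low isoleucine diets were 44.2 and 46.8 CPM in B6F, 40.2 and 38.1 in B6M, 40.7 and 46.9 in DBAF, and 39.1 and 29.7 in DBAM. The estimates were thus positive in both female classes (0.20 ± 0.11 and 0.12 ± 0.11) and negative in both male classes (-0.11 ± 0.11 in B6M and -0.28 ± 0.11 in DBAM). The difference of males minus females was -0.35 ± 0.11 (adjusted p = 0.047), and it did not pass with the title number as a block (adjusted p = 0.16) or without B6F control library 4 (adjusted p = 0.054); leaving out any 1 of 48 libraries ended the call in 28 cases, with estimates between -0.39 and -0.32. With Slc38a4 it made 2 of 7 members that passed this test of the sexes, beside 6.68% of all genes.

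Slc7a2, the arginine and lysine carrier, and Slc6a12, the betaine carrier, did not pass in any class. Slc7a2 in B6F lay between 331 and 668 CPM (median 389) on the control diet and between 417 and 849 (median 574) on low isoleucine, a difference of 0.47 ± 0.19 on the log2 scale (adjusted p = 0.075). Its highest control value was that of library 4, which stood apart from the other 5 (331 to 419 CPM), and without this library the estimate was 0.64 (adjusted p = 0.012). Slc6a12 in B6F had medians of 66.9 and 82.4 CPM on the control and low isoleucine diets, with 0.33 ± 0.13 (adjusted p = 0.059), and without library 4 it was 0.39 (adjusted p = 0.03). In the other 3 classes the estimates ran from -0.25 to 0.00 for Slc7a2 and from -0.16 to 0.18 for Slc6a12.

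Slc7a8, the LAT2 light chain, gave estimates of -0.68 ± 0.26 in B6M (adjusted p = 0.12) and -0.49 ± 0.24 in B6F (adjusted p = 0.15) on low isoleucine, and of -0.06 ± 0.25 and 0.10 ± 0.26 in DBAF and DBAM. Its average over the classes, -0.28 ± 0.13, did not pass either (adjusted p = 0.072).

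**Figure D2:**
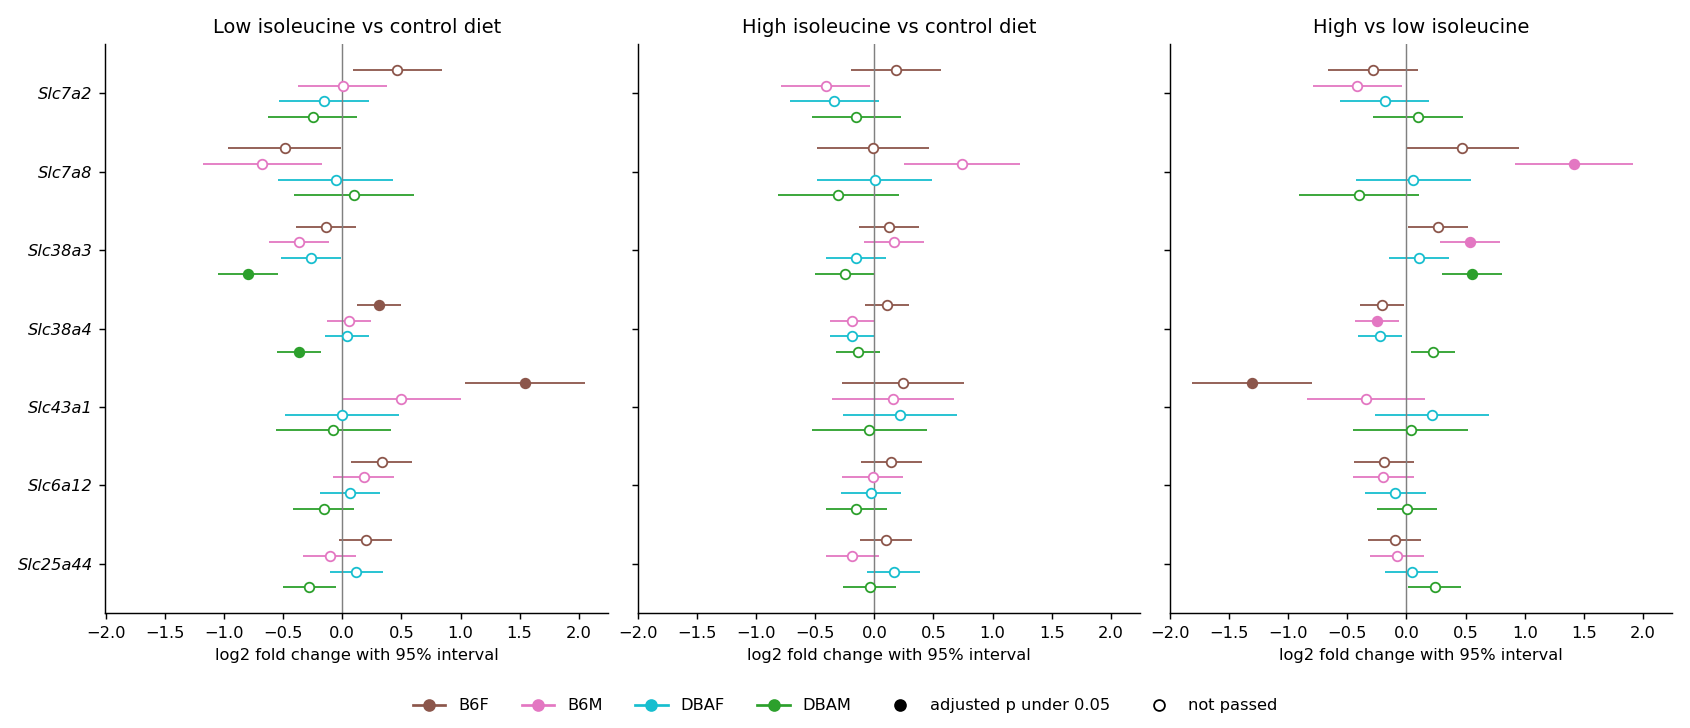
Log2 fold changes (horizontal axes, with 95% intervals) of the 7 genes in each class, for low isoleucine against control, high isoleucine against control, and high against low isoleucine; filled points have an adjusted p under 0.05. Slc43a1 in B6F (1.55 and -1.31), Slc38a3 in DBAM (-0.80 and 0.55) and Slc7a8 in B6M (1.42, high against low) stand farthest from 0 among the filled points, and no point is filled for high isoleucine against control.

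For high isoleucine against the control diet, none of the 7 transporters passed the test in any class. By edgeR, 0 of 7 members passed in the average of the classes, beside 0% of all genes (1 member at an unadjusted p under 0.05), and 0 of 7 in B6M, the class with the most changed genes, beside 4.51% (3 members at an unadjusted p under 0.05). The count was also 0 of 7 in B6F (beside 0%), DBAF (0.00669%) and DBAM (0.0134%), with 0 members at an unadjusted p under 0.05 in each. Neither test of whether this effect differed, between strains (0.461% of all genes) or between sexes (0%), called a member by edgeR; at an unadjusted p under 0.05 there were 2 and 1. The estimates farthest from 0 were both in B6M: 0.74 for Slc7a8 (95% interval 0.25 to 1.23, adjusted p = 0.068; DESeq2 gave 0.75 with an adjusted p of 0.048) and -0.41 for Slc7a2 (95% interval -0.79 to -0.04, adjusted p = 0.2). Slc43a1, which low isoleucine had raised in B6F, had a median of 4.11 CPM in B6F on high isoleucine against 3.67 on control, with 0.24 (95% interval -0.28 to 0.76). In the average of the classes the intervals of all 7 genes lay between -0.37 and 0.39.

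High against low isoleucine set the ends of the diet range side by side, and both comparisons use the low isoleucine libraries described above. In the average of the classes 4 of 7 members passed, beside 43.6% of all genes. Slc7a8 (0.39 ± 0.13, adjusted p = 0.0095) and Slc38a3 (0.37 ± 0.06, adjusted p = 4.5e-06) were higher on high isoleucine. Slc43a1 (-0.35 ± 0.13, adjusted p = 0.02) and Slc38a4 (-0.11 ± 0.05, adjusted p = 0.047) were lower, and Slc38a4 did not pass with the title number as a block (adjusted p = 0.083).

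Within the classes, Slc43a1 in B6F lay between 2.11 and 7.68 CPM on high isoleucine, below all low isoleucine libraries (-1.31 ± 0.26, adjusted p = 0.00017). It was the single member called in B6F, beside 19.1% of all genes, and its groups did not overlap, beside 8.07% of all genes. Slc38a3 was higher in B6M, with 1151 to 1674 CPM on high against 750 to 1031 CPM on low isoleucine (0.54 ± 0.13, adjusted p = 0.0014). It was also higher in DBAM, with 1284 to 1761 against 763 to 1241 CPM (0.55 ± 0.13, adjusted p = 0.0017). In the DBAM comparison 8 of 10 sinusoidal endothelial markers were lower (median -0.73), as were 2 of 11 stellate cell and 2 of 10 lymphocyte markers (1 higher). Of 9 hepatocyte markers 1 was lower and 0 higher. In B6M the markers listed below for Slc7a8 moved. The part of these markers in the Slc38a3 results was not tested. Neither pair of groups overlapped, beside 8.53% of all genes in B6M and 4.93% in DBAM. In B6M 3 of 7 members passed, beside 25.9% of all genes, in DBAM 1, beside 14.3%, and in DBAF 0, beside 14.9% (1 member at an unadjusted p under 0.05); no member of DBAF had groups without overlap, beside 6.15% of all genes. Slc38a4 in B6M (-0.25 ± 0.09, adjusted p = 0.043) did not pass with the block (adjusted p = 0.1).

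Slc7a8 in B6M was the third of these genes. Its 6 low isoleucine libraries lay at 1.58, 1.96, 2.07, 2.19, 3.08 and 4.53 CPM, and its 6 high isoleucine libraries at 3.42, 4.34, 5.44, 6.52, 8.18 and 12.9 CPM. The groups overlapped, with the control libraries between them at 3.06 to 5.75 CPM. The log2 fold change was 1.42 ± 0.26 (2.67-fold, adjusted p = 2.9e-05), and it lay between 1.14 and 1.65 when any 1 library of these groups was left out.

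Markers of Kupffer cells, the resident macrophages of the liver, moved in the same direction as Slc7a8 in this B6M comparison. In B6M 10 of 12 markers were higher and none lower on high than on low isoleucine (median 1.20), and their summed level lay between 110 and 260 CPM on low, between 257 and 463 on control and between 170 and 825 CPM on high isoleucine. Over all 72 libraries, the 6 with the highest Slc7a8 were also the 6 with the highest summed Kupffer markers. The lowest Slc7a8, 0.913 CPM, was in DBAM high isoleucine library 3, which had the second lowest marker sum, 127 CPM. Between these ends the ranks could differ. DBAF low isoleucine library 2 ranked 22 for Slc7a8 and 55 for the markers, and DBAF high isoleucine library 2 ranked 50 and 24. Against control, averaged over the classes, low isoleucine lowered 9 and raised 1 of the 12 markers (median -0.43). No defining Kupffer marker was absent: Clec4f and Vsig4 averaged 68.7 and 20.6 CPM over the libraries. Other lists moved in the same B6M comparison. Of 10 lymphocyte markers 6 were higher and 0 lower (median 1.10), of 4 neutrophil markers 1 and 0, of 11 stellate cell markers 2 and 0, and of 10 sinusoidal endothelial markers 0 and 2. Of 9 hepatocyte markers 0 were higher and 2 lower (median -0.20). Of 10 genes of pericentral hepatocytes, the cells around the central vein, 3 were higher and 1 lower. Of 10 genes of periportal hepatocytes 1 was higher and 3 lower (median -0.37). The sum of the 3 tested adipose markers, Cidea, Cfd and Fabp4, did not overlap (7.11 to 9.01 CPM on low and 16.5 to 248.6 CPM on high isoleucine). Adipoq, Lep and Plin1 had too few counts to be tested, so this sum does not show adipose tissue. The part of any of these cells or genes in the Slc7a8 result was not tested.

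**Figure D3:**
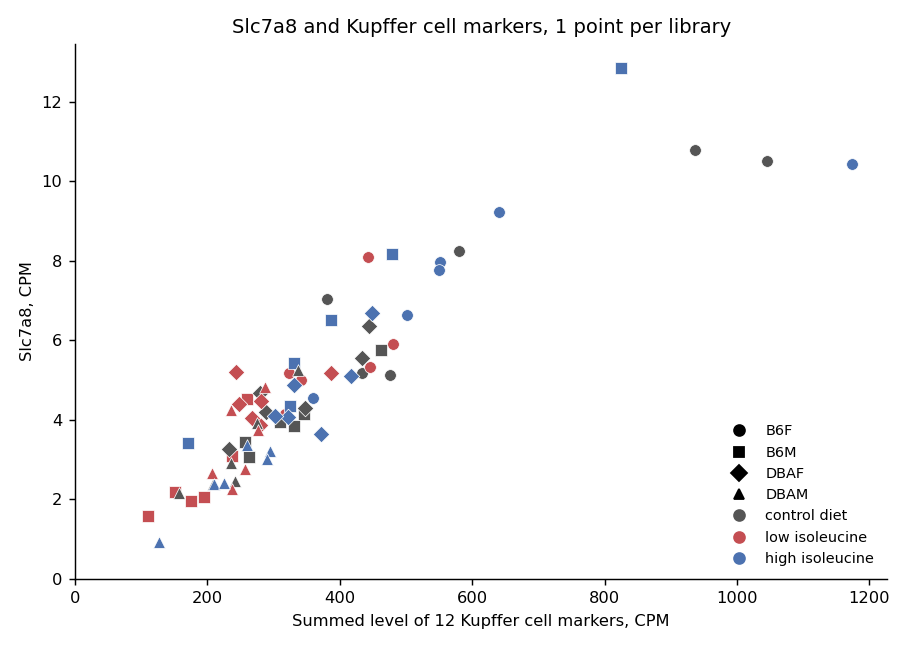
Slc7a8 (vertical axis, CPM) against the summed level of 12 Kupffer cell markers (horizontal axis, CPM) in each of 72 libraries, with the class as symbol and the diet as colour; both axes start at 0. The library with 12.9 CPM of Slc7a8 had a marker sum of 825 CPM, and the library with 0.913 CPM one of 127 CPM.

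On the control diet the strains differed in 4 of the 7 transporters, beside 45.4% of all genes. Slc43a1 was higher in DBA by 1.38 ± 0.18 (2.61-fold, adjusted p = 2.7e-09): the 12 B6 control libraries lay between 1.99 and 8.13 CPM and the 12 DBA control libraries between 5.96 and 18.0 CPM, with overlap between 5.96 and 8.13 CPM. Slc38a3 was also higher in DBA (0.51 ± 0.09, adjusted p = 3.5e-06). Slc7a2 was lower in DBA by 0.99 ± 0.14 on the log2 scale (1.98-fold, adjusted p = 9.5e-09), with B6 control libraries at 331 to 927 CPM and DBA control libraries at 197 to 409 CPM. For this basic amino acid carrier the strains were ordered alike on every diet, since all 6 B6 group means (429 to 716 CPM) lay above all 6 DBA group means (211 to 310 CPM). Slc7a8 was lower in DBA (-0.54 ± 0.18, adjusted p = 0.0094), beside 9 lower and 0 higher of the 12 Kupffer markers, 7 lower and 1 higher of 10 lymphocyte markers, 4 lower and 1 higher of 6 cholangiocyte markers, 2 lower of 4 neutrophil markers and 5 lower of 11 stellate cell markers; their part was not tested.

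Between the sexes on the control diet 3 of 7 members differed, beside 26.2% of all genes. Slc7a8 was lower in males by 0.77 ± 0.18 (adjusted p = 0.00073), with medians of 7.65 CPM in B6F and 3.90 in B6M, and of 4.49 in DBAF and 2.68 in DBAM; all 12 Kupffer markers were lower in males (median -0.73). Lower in males were also 7 of 10 lymphocyte markers (median -1.02, 1 higher), 4 of 4 neutrophil (-0.92), 8 of 10 sinusoidal endothelial (-0.51) and 7 of 11 stellate cell markers (-0.35), so that Kupffer markers were not alone, and the part of these cells was not tested. Slc38a3 was higher in males by 0.39 ± 0.09 (adjusted p = 0.00071), with medians of 929.6 and 1124 CPM in B6F and B6M and of 1365 and 1733 CPM in DBAF and DBAM. Slc38a4 was higher in males by 0.195 ± 0.07 (adjusted p = 0.024), and this did not pass with the title number as a block (adjusted p = 0.064) or without B6F control library 2 or 6 or DBAF control library 3. Slc6a12 passed in no comparison of diet, strain or sex.

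**Figure D4:**
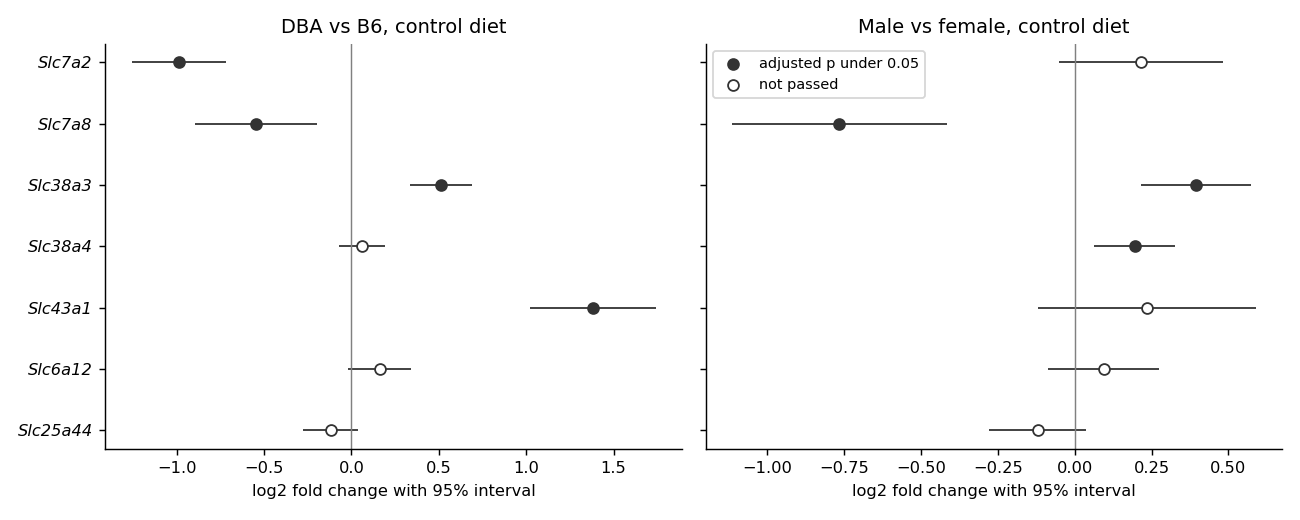
Log2 fold changes (horizontal axes, with 95% intervals) of the 7 genes on the control diet, for DBA against B6 and for males against females; filled points have an adjusted p under 0.05. Slc43a1 (1.38) and Slc7a2 (-0.99) lie farthest from 0 between the strains, and Slc7a8 (-0.77) between the sexes.

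The other amino acid transporters of the liver were described from lists. Of 36 further genes for plasma membrane transporters 19 were tested, and on low isoleucine, averaged over the classes, 6 were higher and 6 lower, beside 37.8% of all genes; their median was -0.02 against -0.0035 for all genes. Slc16a10, encoding the aromatic amino acid carrier TAT1, was higher (0.49 ± 0.07, adjusted p = 1.4e-07), as was Slc1a5, encoding the glutamine exchanger ASCT2 (0.66 ± 0.14, adjusted p = 9.5e-05). Slc38a2, encoding SNAT2 of the Slc38a3 and Slc38a4 family, was also higher (0.26 ± 0.07, adjusted p = 0.0033), and its largest value was in DBAM (0.53 ± 0.15, adjusted p = 0.0077), the class in which Slc38a3 and Slc38a4 were lower. Slc1a4, encoding ASCT1, was lower (-0.67 ± 0.13, adjusted p = 3.4e-05). Among L-type carriers, Slc7a5 was higher (0.33 ± 0.10, adjusted p = 0.0081), and Slc43a2, of the same family as Slc43a1, was at 0.03 ± 0.08 (adjusted p = 0.82); these 2 were picked out after their values were seen.

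Listed carriers of lysosomes and mitochondria were counted in the same way, and their shares lay near the 37.8% of all genes. Of 9 tested lysosomal carriers 1 was higher and 3 lower, among them Slc36a1, encoding the proton-coupled carrier PAT1 (-0.66 ± 0.09, adjusted p = 5.5e-08), Slc38a7 (-0.27 ± 0.06) and Slc36a4 (0.35 ± 0.08). Of 10 tested mitochondrial carriers beside Slc25a44, 3 were higher and 1 lower. Slc25a12, encoding an aspartate and glutamate carrier, was at 0.29 ± 0.06 (adjusted p = 0.00026), and Slc25a15, the ornithine carrier of the urea cycle, at 0.23 ± 0.09 (adjusted p = 0.035). Slc25a40 was lower (-0.33 ± 0.09, adjusted p = 0.0027).

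**Figure D5:**
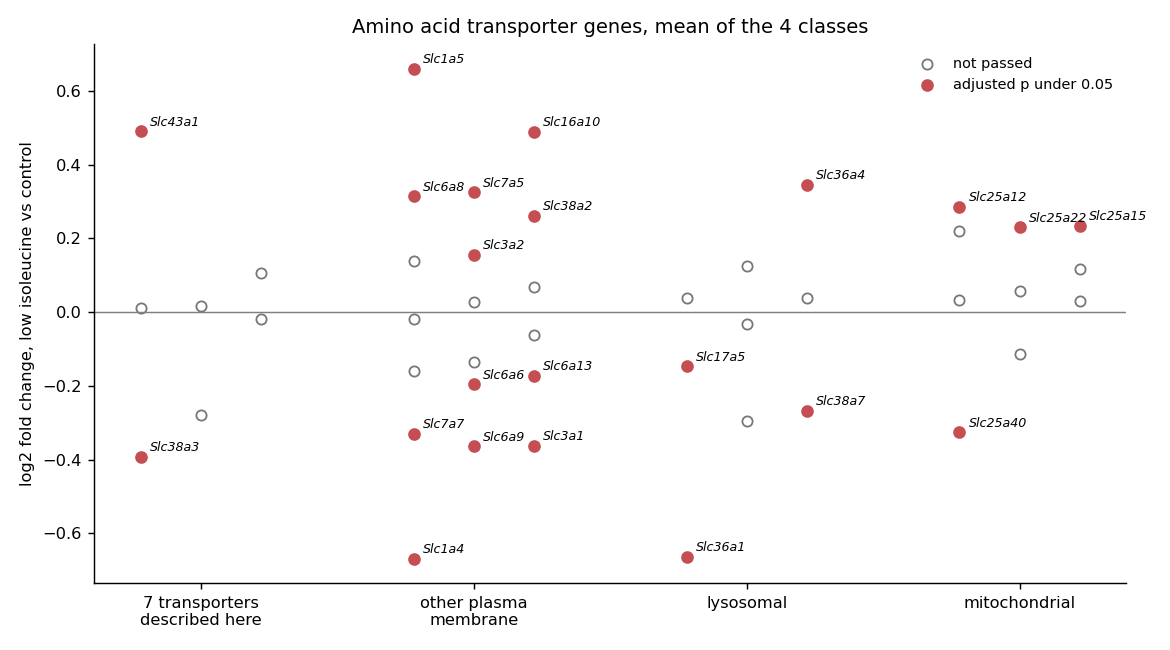
Log2 fold changes (vertical axis) for low isoleucine against control, averaged over the 4 classes, of the 7 transporters and of the tested genes of 3 lists; points are spread sideways for legibility, and filled, named points have an adjusted p under 0.05. Slc43a1 (0.49) and Slc38a3 (-0.39) are the 2 named points among the 7, beside 12 of 19 further plasma membrane, 4 of 9 lysosomal and 4 of 10 mitochondrial carriers.

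Genes of related pathways were counted likewise, beside the same 37.8% of all genes called. Of 24 tested genes of branched-chain amino acid breakdown 2 were higher and 5 lower on low isoleucine (median -0.06), among them Acadsb, the dehydrogenase for the isoleucine-derived acyl-CoA (-0.25 ± 0.05, adjusted p = 4.2e-05), and Pcca, a subunit of propionyl-CoA carboxylase (-0.28 ± 0.05, adjusted p = 4e-05). Of 10 genes of arginine, glutamine and urea metabolism 3 were higher, Cps1, Asl and Arg1, and 1 lower, Otc (-0.45 ± 0.06, adjusted p = 4.6e-09). Of 7 genes of betaine and choline oxidation 2 were higher and 3 lower, with Bhmt, which uses betaine, at 0.52 ± 0.14 (adjusted p = 0.0019) while Slc6a12, the betaine carrier, was at 0.11 ± 0.07 (adjusted p = 0.2). Of 5 osmolyte genes 0 were higher and 3 lower, one of them the taurine carrier Slc6a6 (-0.20 ± 0.07, adjusted p = 0.028). Of 23 tested genes of the amino acid response driven by ATF4, 8 were higher and 2 lower (median 0.16), with Atf4 itself at 0.25 ± 0.07 (adjusted p = 0.0017). Shmt2, with the lowest adjusted p of this list, was lower (-0.28 ± 0.06, adjusted p = 0.00021). By class the median was -0.01 in B6F, 0.12 in B6M, 0.27 in DBAF and 0.155 in DBAM.

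For each transporter the genes with the most similar pattern over the 12 group means were listed by Pearson's r of log2 CPM among 11362 genes. The 12 means share strain, sex and diet differences, so that r is a description. For Slc43a1 the listed genes included Ppp3cc (r = 0.971) and Glmn (r = 0.952). Slc7a8 was most like Arhgap25, Dmpk and Itgb2 (0.971 to 0.975), of which Itgb2 encodes a leukocyte integrin chain. Slc38a3 was most like Upp2, Hpn and Arl16 (0.952 to 0.969), and Slc7a2 most like Peli2, Hgd and Nhsl1 (0.97 to 0.975). Slc38a4 was most like Ass1, Dbt and Clptm1 (0.858 to 0.874), where Ass1 encodes an enzyme of the urea cycle and Dbt a subunit of the branched-chain ketoacid dehydrogenase. Slc25a44 was most like Lclat1, Kdm5c and Ebag9 (0.902 to 0.925), and Slc6a12 most like Abhd15, Zc3h13 and Tmem63a (0.828 to 0.848). Between the 7 genes themselves r ran from -0.65 for Slc7a2 with Slc43a1 to 0.77 for Slc38a4 with Slc6a12, over the same 12 means.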

How the data were processed

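RNA of livers from fasted mice was sequenced by the submitters as 72 libraries. Per the labels, the values the authors deposited are expected counts for each Ensembl gene on the GRCm38.p5 build; aligner and counter: not given in the sources used here. Expected counts are estimates: 9.56% of nonzero values were not whole. The fields disagree on the kit (polyA mRNA or total RNA, both stranded). R 3.4.3, limma and edgeR are listed in the submitters' processing notes. The table has 50308 gene lines, 1 of them incomplete and left out. Groups came from the strain, sex and diet fields.

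CPM is computed from the scaled library totals. Counts were rounded, filtered with filterByExpr by group and scaled by TMM (factors of 0.84 to 1.14). All 72 libraries were fitted together, 1 mean per group, with edgeR's quasi-likelihood test (robust), and p-values were Benjamini-Hochberg adjusted over 14954 genes; the threshold was 0.05 and the common biological coefficient of variation 0.21. An average over classes is the mean of the 4 class effects. In the simulated comparison of low isoleucine with control in B6F, over 14954 genes, 94.0% of 67 genes changed 2-fold and 65.7% of 67 changed 1.5-fold were recovered, and 2 unchanged genes were called. The libraries were simulated as independent, with far fewer changed genes than the 20.8% called in the data. These shares may not carry over. Named genes are all 7 members, the 3 genes most like each member (mean of at least 1 CPM; 1 of those for Slc43a1 is not reported here), and up to 4 genes per list with the lowest adjusted p on low isoleucine. Promoters were to be printed for members past the threshold with the same sign in all classes, which only Slc38a3 met; it had no entry. Members, lists and tests were chosen with earlier results of these data known. The authors' tables of fold changes were not used here, since the labels do not define their group codes. Same-numbered libraries of a group had a median residual correlation of -0.03 (36 pairs), above the -0.25 of other pairs (144; residuals around a group mean are negatively correlated by construction), and the consensus correlation of the block was 0.244. Software: DESeq2 1.42.0, edgeR 4.0.16, limma 3.58.1, all in R 4.3.3. Alternatives were DESeq2, other scalings, no low count filter, voom with quality weights, separate fits per class, title numbers as a block or summed, and omitted libraries.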

Additional observations from a re-analysis of the deposited data

Results flagged for a closer look

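Among 84 sets of 6 libraries (7 genes in 12 groups), 6 held a library far from the others, defined as a gap to the nearest library of more than 0.625 of the group's range; chance flags about 1 in 20 such sets, or 4.2 here. In B6F control library 4, Slc7a2 was at 668 CPM against 419 for the next (0.739 of the range). In DBAM low isoleucine library 2, Slc7a2 was at 168 CPM against 207 (0.658). In B6M low isoleucine library 5, Slc38a3 was at 750 CPM against 946 (0.698). In DBAM high isoleucine library 3, Slc38a4 was at 670 CPM against 965 (0.63). In B6F low isoleucine library 3, Slc43a1 was at 16.4 CPM against 10.6 (0.755), and in DBAF low isoleucine library 4 it was at 15.8 CPM against 11.7 (0.671).

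The low isoleucine effect differed between groups of mice for 3 genes by an interaction term in edgeR. Between strains (DBA minus B6), the difference was -1.06 for Slc43a1 and -0.35 for Slc38a4. Between sexes (males minus females), it was -0.33 for Slc38a4 and -0.35 for Slc25a44. None of these 4 passed with the title number as a block, with adjusted p-values of 0.074, 0.18, 0.097 and 0.16 in the same order.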

How the results depend on the processing

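Of 26 member results past the threshold, 19 stayed past it under every alternative other than omitting single libraries, and all kept their sign. Over 243 such values 218 passed. Of 84 results that passed in no setting, other than low isoleucine against control, 26 of 802 values had the opposite sign, at most 0.13 in size. Near-zero estimates for low isoleucine turned sign for Slc43a1 in DBAF (0.0038 with DESeq2, 0.0015 with the class alone, 0.0029 with RLE factors, 0.033 with the replicate block, 0.043 with voom quality weights) and for Slc7a2 in B6M (-0.021 with voom quality weights).

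Counts of members past the threshold moved as follows. With the title number as a replicate block, or with same-numbered libraries summed, 0 members in place of 2 differed between strains and 0 in place of 2 between sexes in the low isoleucine effect. Over all genes, 11 (block) and 16 (summed) were called between strains in place of 208. Between sexes it was 300 and 159 in place of 999. Without the low count filter the member counts were 1 and 0 (all genes: 109 and 611). With upper quartile factors the second was 0 (all genes: 1031), and without B6F control library 4 it was 1 (all genes: 1191). For low isoleucine against control in B6F the member count was 4 in place of 2 with voom quality weights, without library 4 and without the 4 farthest libraries. Over all genes these settings called 4630, 3703 and 4109 in place of 3115. In B6M the member count was 2 in place of 0 with voom quality weights (all genes: 1715 in place of 748). For high isoleucine against control in B6M the member count was 1 in place of 0 with DESeq2 and without the 4 libraries (all genes: 853 and 702 in place of 674). For high against low isoleucine it was 2 in place of 1 in B6F with voom quality weights (all genes: 3723 in place of 2857). In DBAM it was 3 in place of 1 with voom quality weights and without the 4 libraries (all genes: 2735 and 2670 in place of 2137). The cause of these changes was not tested. Of the 26 called member results, the block ended those named in the report and no others. Calls of single list and marker genes were not examined under the block. Over all genes the block called 4423 in place of 5647 for low isoleucine averaged over classes, and 1852 in place of 3115 in B6F. Leaving out the 4 farthest libraries, and the refits without 1 library at a time, were added after seeing the data. Those 1-library refits kept the scaling factors and the dispersion trend of the full fit. The setting without B6F control library 4 and that without the 4 farthest libraries estimated both anew.

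Leaving out 1 library at a time gave counts of 2 to 3 for low isoleucine averaged over classes, 1 to 4 in B6F and 2 to 3 in DBAM; of 3 to 5 for high against low isoleucine averaged, 2 to 4 in B6M and 1 to 3 in DBAM; of 1 to 2 for the strain and 1 to 3 for the sex difference of the effect; and of 2 to 3 between sexes on the control diet. Of the called results, Slc38a4 in high against low isoleucine was lost in 26 of 48 refits averaged and 9 of 12 in B6M, its strain difference in 22 of 48, and the Slc25a44 sex difference in 28 of 48. Counts of 53 to 502 for Slc43a1 and 22 to 361 for Slc7a8 limit the precision of the L-type carriers.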
